A study of Mus musculus with 4 samples.

Results

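The 8 genes described here encode carbonic anhydrases, membrane proteins and receptors of the red cell lineage: Car1, Car2, Ermap, Rhd, Aqp1, Epor, Tfrc and Blvrb. They were taken by symbol from the 32285 gene rows of the deposited matrices, and each symbol matched 1 row. The data are single-cell counts of RNA and of antibody barcodes from mouse bone marrow cells sorted as CD45.2+Kit+, taken 10 weeks after a transplantation. Kit, also named CD117, is the receptor that marks blood stem and progenitor cells. There was 1 library for each of 4 groups: a control whose library name is wt, and bone marrow with Mll3 deleted, with Mll4 deleted, or with both (Mll3/4 deleted). The labels give no strain, Cre driver, age at transplantation or number of animals for any group. Mll3 and Mll4 are histone methyltransferases encoded by Kmt2c and Kmt2d, and the study's title concerns their redundant part in blood stem cell and myeloid identity and in B-cell priming. With 1 library a group there is no replicate check. Every interval below is a 95% interval of the counting error alone, and each comparison is between libraries, not between conditions.

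Red cell progenitors depend on erythropoietin, which acts through its receptor Epor, and on iron, which the transferrin receptor Tfrc carries into the cell. Rhd, a protein of the Rh blood group complex, Ermap, which carries the Scianna blood group antigens, and the water channel Aqp1 sit in the red cell membrane. Car1 and Car2 are cytosolic enzymes that interconvert carbon dioxide and bicarbonate, and Blvrb is a biliverdin and flavin reductase abundant in red cells. Car1 is widely used as a marker of commitment to the red cell lineage, whereas Car2 and Tfrc are also known from many other cell types.

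After filtering, 5350 to 7146 cells were kept per library, with a median of 5142 gene UMIs (unique molecular identifiers, counted RNA molecules) per cell in the Mll4-deleted library and 9965 to 16963.5 in the others. Pairs of libraries shared 9 to 24 cell barcodes, at most 0.29% of either library. Kmt2c was at 47.9 CPM (counts per 1000000 counted) in control and at 27.2, 59.2 and 34.8 CPM in the Mll3-, Mll4- and Mll3/4-deleted libraries. Kmt2d was at 25.8, 21.6, 25.0 and 24.7 CPM in the same order, so the 3' counts do not separate the Mll4 label from control, and each library is named by its label below (Mll3-labelled and so on). Values in a row follow the order control, Mll3-, Mll4- and Mll3/4-labelled unless stated. Xist was at 0.519 CPM in the Mll4-labelled library and at 954.8 to 1839 CPM in the others, so sex and deletion cannot be told apart there. By the CD117 antibody, 41.7% of control cells lay below the threshold, against 34.7%, 55.5% and 19.98% in the Mll3-, Mll4- and Mll3/4-labelled libraries. Each library carried 2 hashtag antibodies, and the labels do not say what the hashtags mark. Values split by hashtag are therefore given as the spread within a library.

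All 8 identifiers were found in GENCODE M21 on GRCm38, the build that the deposited mm10 counts use. Car1 (ENSMUSG00000027556) lies on chromosome 3 from 14766216 to 14808368 on the minus strand, and Car2 (ENSMUSG00000027562) follows on the same chromosome from 14886273 to 14900770 on the plus strand. Ermap (ENSMUSG00000028644) is on chromosome 4 from 119175457 to 119190011, minus strand, and Rhd (ENSMUSG00000028825) on chromosome 4 from 134864536 to 134896172, plus strand. Aqp1 (ENSMUSG00000004655) is on chromosome 6 from 55336432 to 55348555, plus strand, and Epor (ENSMUSG00000006235) on chromosome 9 from 21958897 to 21963506, minus strand. Tfrc (ENSMUSG00000022797) is on chromosome 16 from 32608920 to 32632794 and Blvrb (ENSMUSG00000040466) on chromosome 7 from 27447978 to 27466144, both on the plus strand. Car1 is the only one that another annotated gene overlaps, Gm16399 on the same strand, so its count may hold reads of that gene.

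RefSeq promoter sequences on GRCm38 were at hand for 6 of the 8 genes, all but Car1 and Car2. The 250 bases before the start site are shown for Rhd and Blvrb, the pair with the lowest levels relative to control in the Mll4-labelled library, and for Epor, the receptor on which the lineage depends. Capitals mark matches on either strand to any of 4 GATA words (AGATAA or else AGATAG, likewise TGATAA or else TGATAG), the kind of site that GATA factors bind, and to CCNCNCCC, the kind of site bound by KLF1, both textbook factors of this lineage. The windows are chr4:134864286-134864535 on the plus strand for Rhd, chr9:21963577-21963826 on the minus strand for Epor and chr7:27447728-27447977 on the plus strand for Blvrb.
Rhd: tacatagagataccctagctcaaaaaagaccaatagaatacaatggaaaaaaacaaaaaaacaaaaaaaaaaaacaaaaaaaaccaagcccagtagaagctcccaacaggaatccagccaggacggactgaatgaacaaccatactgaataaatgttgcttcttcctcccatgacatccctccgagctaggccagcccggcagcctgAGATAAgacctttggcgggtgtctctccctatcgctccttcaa
Epor: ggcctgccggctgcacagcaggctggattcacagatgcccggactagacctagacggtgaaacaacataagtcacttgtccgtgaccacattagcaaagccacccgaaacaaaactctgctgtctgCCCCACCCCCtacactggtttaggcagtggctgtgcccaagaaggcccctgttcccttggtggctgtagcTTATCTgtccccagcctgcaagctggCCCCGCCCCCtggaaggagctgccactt
Blvrb: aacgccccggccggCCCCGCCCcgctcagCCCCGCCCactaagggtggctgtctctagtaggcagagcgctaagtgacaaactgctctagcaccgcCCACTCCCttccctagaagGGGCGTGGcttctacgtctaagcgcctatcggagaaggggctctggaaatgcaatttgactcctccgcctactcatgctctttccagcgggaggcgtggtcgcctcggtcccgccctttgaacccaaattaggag
In Rhd the matching word AGATAA lies at positions -43 to -38 from the start site, with no match to CCNCNCCC in the window. In Epor the word TTATCT lies at -54 to -49, a match on the other strand, and 4 overlapping matches to CCNCNCCC fall into 2 runs. The Blvrb window holds 4 matches to CCNCNCCC and no GATA word, and a further annotated start site of Blvrb has 1 GATA match in its own window. Ermap also has 1 GATA match, while the Aqp1 window and both Tfrc windows have CCNCNCCC matches alone. Of 32851 promoter windows of the same length, 26.5% hold a GATA word and 45.9% hold CCNCNCCC, so both are common and a match is a description, not a site in use.

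Over all kept cells the 8 genes differed by at most 1.27-fold between control and the Mll3-labelled library, were lower in the Mll4-labelled library, and were near 0 or several-fold lower in the Mll3/4-labelled library. Among the receptors, Epor was at 38.2, 42.8, 20.8 and 0.322 CPM, the last from 25 counts. Tfrc was at 113, 114, 88.4 and 31.4 CPM. The Tfrc transcript was thus the member that differed least between the libraries. Among the membrane proteins, Ermap was at 108, 128, 45.5 and 0.322 CPM. Rhd was at 46.9, 58.4, 12.8 and 0.155 CPM, and the last value rests on 12 counts. Aqp1 was at 67.4, 85.8, 40.1 and 0.219 CPM. All 3 membrane genes had 25 counts or fewer in the 77657652 UMIs of the Mll3/4-labelled library. Among the enzymes, Car1 was at 1448, 1581, 656 and 7.06 CPM, Car2 at 909.5, 905, 589 and 119 CPM, and Blvrb at 379.6, 476, 98.7 and 31.6 CPM. Car2, Blvrb and Tfrc thus kept a measurable level in the Mll3/4-labelled library.

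**Figure D1:**
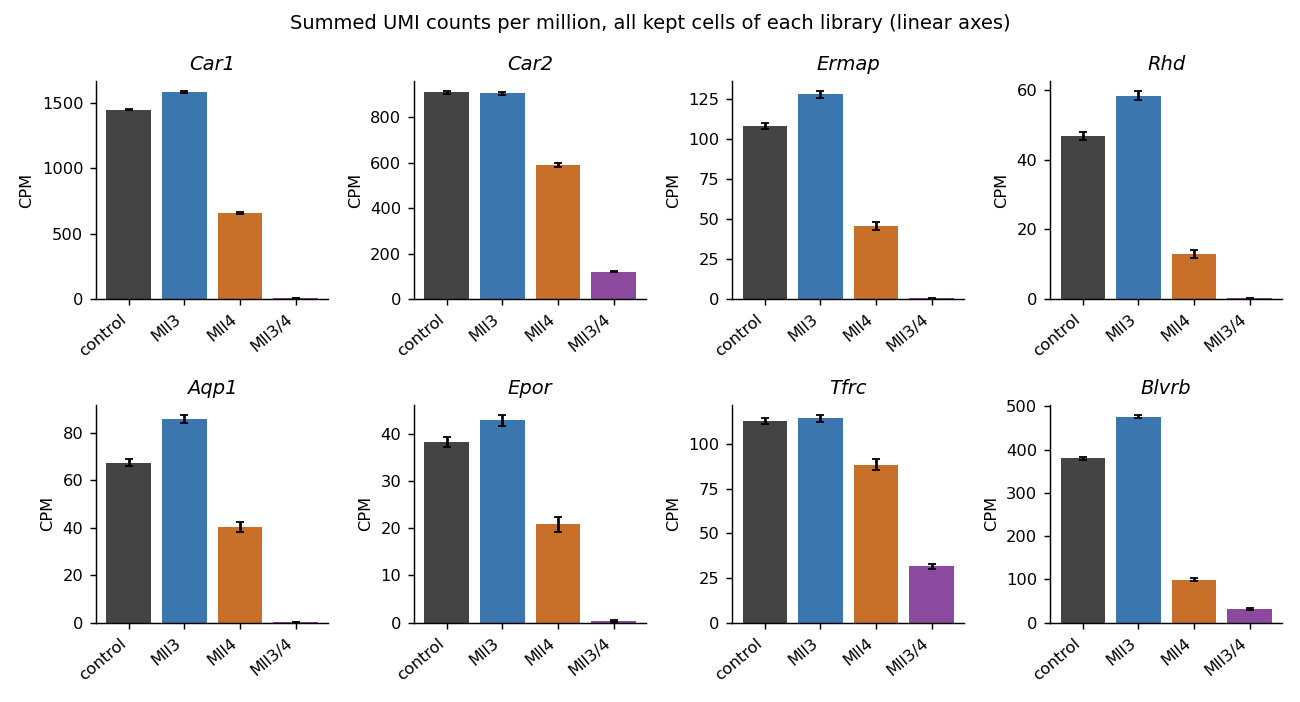
Bars give the summed CPM of each gene over all kept cells of each library, on linear axes that start at 0, with 95% Poisson intervals of the counting error. Control and Mll3-labelled bars differ by at most 1.27-fold, Mll4-labelled bars are lower, and the Mll3/4-labelled library shows a visible bar only for Car2, Tfrc and Blvrb.

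A gene is called different here when its ratio to control is at least 2-fold on the log2 scale with 1 CPM added to both values, among genes with at least 20 counts in either library. In the Mll3-labelled library 0 of 8 members were called, against a background of 0.667% of 14550 genes, and the member ratios ran from -0.01 for Car2 to 0.34 for Aqp1. No test was run, so no p-value stands behind this count. In the Mll4-labelled library 4 of 8 members were called lower and none higher, where 2.91% of 14452 genes were called lower. The log2 ratios were -1.93 for Blvrb (-2.00 to -1.89), -1.79 for Rhd (-2.01 to -1.73), -1.23 for Ermap (-1.33 to -1.17) and -1.14 for Car1 (-1.16 to -1.12). The other 4 members had ratios from -0.85 for Epor to -0.35 for Tfrc, which misses the 2-fold limit. With the cells of the first hashtag alone 2 members were called, Blvrb and Rhd, and with those of the second 7. In the Mll3/4-labelled library 8 of 8 members were called lower, where 11.7% of 15158 genes were called lower. The ratios there ran from -7.49 for Car1 to -1.81 for Tfrc, and the added 1 CPM makes those of Ermap, Rhd, Aqp1 and Epor smaller than the measured levels would give. Over all cells, fewer cells of the lineage and less RNA of a gene per cell cannot be told apart, and the levels within cell classes follow.

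Clusters of cells were named from marker genes that exclude the 8 members, and the members were also kept out of the clustering. The erythroid progenitor-like class held 1699 control cells (23.8%), 1664 Mll3-labelled cells (28.4%), 517 Mll4-labelled cells (9.66%) and 2 Mll3/4-labelled cells (0.0289%). They were deep cells and held 47.0%, 52.2%, 20.9% and 0.144% of the UMIs in that order. In control they supplied 99.1% of the Car1 counts, 99.2% of the Ermap and of the Rhd counts, 95.2% for Epor, 94.6% for Aqp1 and 94.4% for Blvrb. For Car2 and Tfrc the shares were 89.8% and 87.1%, so these were the members with the most counts outside the lineage. In the Mll4-labelled library the erythroid share of the counts was 64.4% for Tfrc and 83.7% for Blvrb, and at least 87.3% for the other members. Among the named classes with at least 50 control cells, all 8 members were highest in the erythroid progenitor-like class of control, and this held under every clustering and filter setting run. Unnamed clusters were not ranked.

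**Figure D2:**
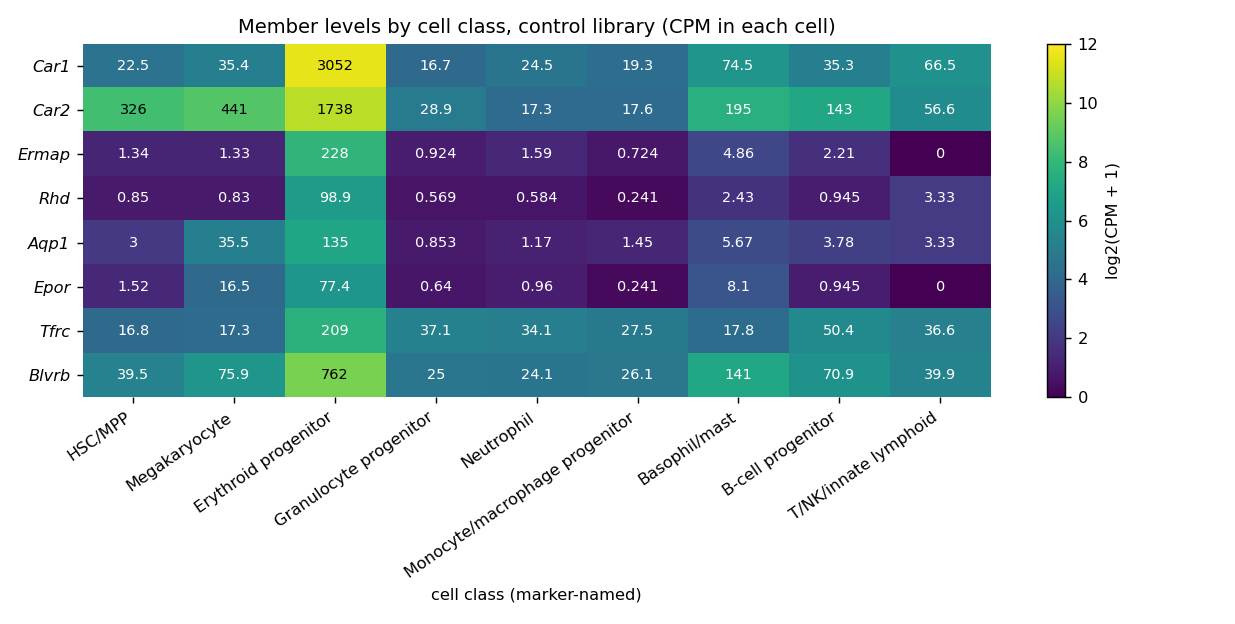
Each cell gives the level of a member (rows) in a cell class of the control library (columns, named from markers) in CPM, with colour on a log2(CPM + 1) scale. The erythroid progenitor column is the brightest in all 8 rows, and Car2 also reaches 441 and 326 CPM in megakaryocyte-like and HSC/MPP-like cells.

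Outside the lineage the members split by gene. Car2 in control was at 441 CPM (429 to 453) in megakaryocyte-like cells and at 326 CPM in HSC/MPP-like cells, the class with markers of stem and multipotent progenitor cells. It was next at 195 CPM in basophil/mast-like and 143 CPM in B-cell progenitor-like cells, and at 17.3 to 28.9 CPM in neutrophil-, monocyte/macrophage- and granulocyte-type cells. Car1, the other carbonic anhydrase, showed no such second site: it was at 16.7 to 35.4 CPM in 6 classes, and at 66.5 CPM (20 counts) and 74.5 CPM (92 counts) in T/NK/innate lymphoid-like and basophil/mast-like cells. The levels outside the lineage were not corrected for free RNA in the droplets, and its part in them was not tested. Aqp1 and Epor had a second site in megakaryocyte-like cells, at 35.5 and 16.5 CPM in control, where the other non-erythroid classes ranged up to 5.67 and 8.10 CPM. The Epor level of megakaryocyte-like cells (14.3 to 19.0) overlapped that of basophil/mast-like cells (3.88 to 14.9) within counting error. In the classes with at least 50 control cells outside the lineage, Tfrc ran from 16.8 CPM in HSC/MPP-like cells to 50.4 CPM in B-cell progenitor-like cells. Ermap and Rhd did not pass 4.86 and 3.33 CPM in any class with at least 50 control cells outside the lineage.

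Car2 was higher in megakaryocyte-like than in HSC/MPP-like cells of the other libraries too. In megakaryocyte-like cells it was at 490.03 CPM (Mll3-labelled) and 570.3 CPM (Mll4-labelled), and in HSC/MPP-like cells at 374 and 333 CPM. In the Mll3/4-labelled library the 6 megakaryocyte-like cells held 89 Car2 counts (520.0 CPM) and the 13 HSC/MPP-like cells held 74 (268 CPM). The intervals of both, 418 to 639.9 CPM and 211 to 337 CPM, are wide because the cells are few. Aqp1 in megakaryocyte-like cells was at 35.5, 27.7 and 17.3 CPM in control, Mll3- and Mll4-labelled cells. Tfrc in megakaryocyte-like cells was at 37.1 CPM in the Mll4-labelled library against 17.3 CPM in control, a log2 ratio of 1.05 (0.69 to 1.49) where 4.38% of 10884 genes were called higher. Tfrc was also above control in HSC/MPP-like cells of that library, at 30.6 against 16.8 CPM, a log2 ratio of 0.83 (0.52 to 1.20). In granulocyte progenitor-like cells it was at 66.7 against 37.1 CPM, and in neutrophil-like cells at 34.7 against 34.1 CPM, where the interval of the ratio spans 0 (-0.14 to 0.19).

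The erythroid progenitor-like cells fell into 3 clusters, ordered by their globin counts in control and called early, middle and late. Their leading genes were Apoe and Csrp3 in the early cluster, Ass1 and Trib2 in the middle cluster, and C1qtnf12 and Cldn13 in the late cluster, which also had Rhag and Add2 of the red cell membrane among its first 10. The early and middle clusters were close in globin: control Hbb-bt was at 8.81 and 8.39 CPM and Hbb-bs at 6.09 and 11.9 CPM. In the Mll3-labelled library both were lower in the middle cluster, Hbb-bt at 4.50 and 2.01 CPM and Hbb-bs at 5.02 and 3.05 CPM. Hba-a1 and Hba-a2 had at most 14 counts in either cluster there. Cells from the late cluster were the deepest, with a median of 59935.5 UMIs in control against 15822.5 in the early cluster. The CD150 antibody, which played no part in the clustering, was above its threshold on 71.6% of early, 70.5% of middle and 6.45% of late control cells. The early and middle clusters were therefore close on this surface protein and the late cluster stood apart. The class given to the early cells depended on the settings. A cluster led by Csrp3 and Apoe was named basophil/mast-like at Leiden resolution 0.5 (1461 cells) and under stricter cell filters (1431 cells), and HSC/MPP-like at Leiden resolution 2 (772 cells), so the erythroid progenitor-like class was smaller under those settings.

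All 8 members were lowest in the early and highest in the late cluster of control. Rhd had the steepest course, at 10.9 CPM (104 counts), 25.6 CPM and 145 CPM, a 12.2-fold difference between late and early. Tfrc was at 52.3, 88.7 and 287 CPM, a 5.41-fold difference, and Ermap at 68.8, 165 and 285 CPM, a 4.10-fold difference. The Rhd, Tfrc and Ermap transcripts thus differed most along the order. Car2 was at 808, 1126 and 2163 CPM (2.67-fold), Blvrb at 368, 519.7 and 936 CPM (2.54-fold) and Epor at 38.1, 58.8 and 92.7 CPM (2.40-fold). Car1 was at 1741, 2829.9 and 3409.7 CPM (1.96-fold) and Aqp1 at 99.99, 119.6 and 149 CPM (1.48-fold). Car1 and Aqp1 thus differed least along the order. In the Mll3-labelled library the late level exceeded the early level for all 8 members as well, from 1.39-fold for Aqp1 to 9.24-fold for Rhd, and in the Mll4-labelled library from 1.63-fold for Aqp1 to 18.5-fold for Rhd, the last over an early level of 4 counts. The clusters were made from other genes of the same cells, so these courses are a description and carry no test.

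**Figure D3:**
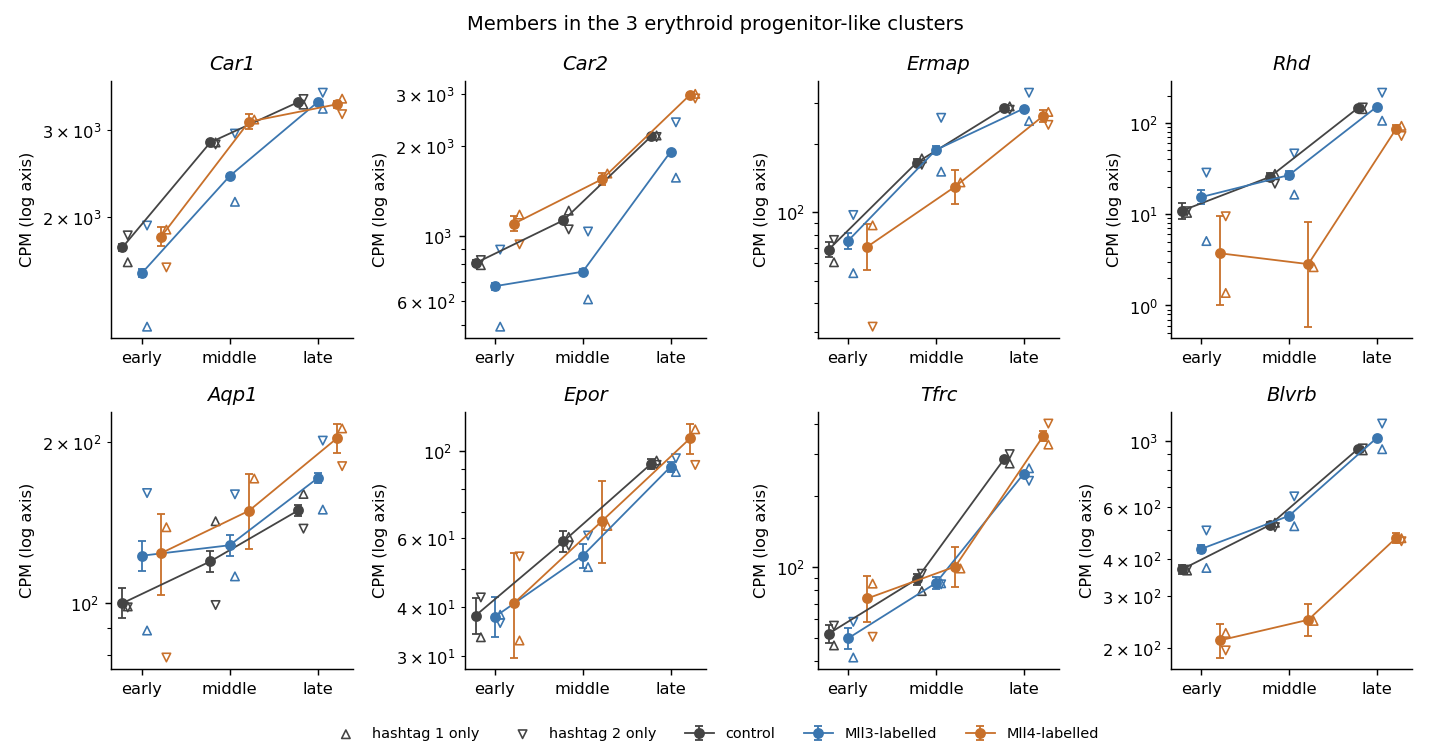
Filled circles give the level of each member in the early, middle and late erythroid clusters of 3 libraries in CPM, on log axes, with 95% Poisson intervals, and open triangles give the same values for the cells of 1 hashtag where at least 50 cells carried it. The Mll4-labelled points of Blvrb lie below all control and Mll3-labelled points of the same cluster, and the blue triangles of the Mll3-labelled library lie far apart for Rhd and Car2.

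Within erythroid progenitor-like cells, the Mll4-labelled library had lower Blvrb and Rhd and higher Car2 than control, while Car1 and Ermap differed little. Blvrb was at 762, 864 and 396 CPM in control, Mll3- and Mll4-labelled cells, a log2 ratio of -0.94 (-1.001 to -0.89) for the last against control. Rhd was at 98.9, 111 and 60.7 CPM, a log2 ratio of -0.70 (-0.85 to -0.56), and Car2 at 1738, 1545 and 2464 CPM, a log2 ratio of 0.50 (0.48 to 0.53). None of the 8 members reached 2-fold, where 4.45% of 12061 genes did in either direction and the median gene stood at 0.17. The remaining ratios were 0.42 for Aqp1, 0.38 for Tfrc, 0.22 for Epor, 0.02 for Car1 and -0.10 for Ermap. Scaling by trimmed mean of M values, which moved the median gene from 0.17 to -0.06, took Blvrb past 2-fold (-1.21) and turned Epor to -0.04 and Car1 to -0.25. It applies the same factor to every gene, so it lowered the Car2 ratio as well, which kept its sign. The 10 neutrophil markers summed to 3338 CPM in these cells of the Mll4-labelled library, against 645 (control) and 559 CPM (Mll3-labelled), with none at 0, and their part in the ratios was not tested.

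Blvrb was lower than control in each of the 3 clusters, and Rhd rests on few counts in the first 2 of them. Blvrb in the Mll4-labelled library was at 212 CPM (early), 249 CPM (middle) and 471 CPM (late), against 368, 519.7 and 936 CPM in control, log2 ratios of -0.79, -1.06 and -0.99. The late erythroid cells of the Mll4-labelled library thus stood between the early and middle control cells in their Blvrb level. Rhd in the Mll4-labelled library was at 3.73 CPM (4 counts), 2.84 CPM (3 counts) and 86.6 CPM (408 counts) in the early, middle and late clusters. Against 10.9, 25.6 and 145 CPM in control, the ratios were -1.33 (-3.45 to -0.15), -2.79 (-5.45 to -1.61) and -0.74 (-0.89 to -0.60). By hashtag, early Rhd in that library was at 1.37 CPM (1 count) and 9.502 CPM (3 counts, 1.96 to 27.8), and the second overlaps the 10.4 and 10.8 CPM of the control hashtags. In early cells of that library the basophil/mast markers summed to 353 CPM, against 73.8 CPM in early control cells. The erythroid markers summed to 275 against 321 CPM and the neutrophil markers to 5772 against 1035 CPM. The part of this in the early ratios was not tested. The late cells also differed in surface proteins: CD150 was above its threshold on 18.7% of them against 6.45% of late control cells, and CD48 on 53.2% against 29.6%, and the part of this in the late Rhd and Blvrb ratios was not tested. The share of genes called lower was 2.87% in the early and 3.92% in the middle cluster, where Rhd in both and Blvrb in the middle one were called. Car2 was higher in all 3, with ratios of 0.44, 0.46 and 0.46. When each cluster was given the weight it has in control, a step added after the data were seen, the ratios were -0.99 for Blvrb, -0.81 for Rhd and 0.46 for Car2.

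The split by hashtag gave the spread within a library. In erythroid progenitor-like cells Blvrb was at 756 and 766 CPM for the 2 hashtags of control, at 785 and 979.5 CPM for those labelled Mll3, and at 392.5 and 392.9 CPM for those labelled Mll4. The Mll4-labelled values lay below the other 4. Rhd was at 96.6 and 100.3 CPM (control), 75.6 and 163 CPM (Mll3-labelled), and 63.1 and 53.8 CPM (Mll4-labelled), the last again the lowest pair but close to the lower Mll3-labelled value. Car2 was at 1755 and 1717 CPM (control), 1243 and 1986 CPM (Mll3-labelled), and 2475 and 2406 CPM (Mll4-labelled), the last the highest pair. Outside the lineage, Blvrb was lower in the Mll4-labelled library than in control in HSC/MPP-like cells (14.3 against 39.5 CPM), megakaryocyte-like cells (40.1 against 75.9 CPM) and basophil/mast-like cells (54.7 against 141 CPM). In granulocyte progenitor-like cells it was at 22.1 against 25.0 CPM, with a log2 ratio whose interval spans 0 (-0.64 to 0.25). Car1 was also lower in HSC/MPP-like cells (24 counts in 3008255 UMIs against 503 in 22361746). The same held in megakaryocyte-like cells (28 in 1968977 against 427 in 12052640). In basophil/mast-like cells Car1 had 54 counts in 804793 UMIs against 92 in 1234568. The part of free red cell RNA in these values was not tested.

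Among the kept cells, which were filtered on RNA counts, the antibodies give a choice that used no further RNA count. Among CD117+ cells without Sca1, CD41 and CD16/32, those with CD150 numbered 356 in control and those without CD150 numbered 952, of which 97.5% and 66.4% were erythroid progenitor-like by RNA. Rhd in control was at 25.0 CPM in the CD150+ and 96.4 CPM in the CD150- cells, and Tfrc at 101 and 216 CPM. The 2 genes with the steepest course over the clusters thus also differed most between these gates. Aqp1 in control was at 129 and 126 CPM and Car1 at 2767 and 3082 CPM, the members that differed least between the gates there. In the Mll4-labelled library Car1 was the higher of the pair with CD150, at 3543 against 2625 CPM. In the same gates of the Mll4-labelled library (123 and 327 cells), Blvrb was at 303 and 356 CPM against 526 and 742 CPM in control. Rhd there was at 9.35 CPM (15 counts) and 61.0 CPM (248 counts) against 25.0 and 96.4 CPM. Car2 was at 1983 and 2252 CPM against 1156 and 1723 CPM. In both gates the Mll4-labelled library was thus below control for Blvrb and Rhd and above it for Car2, as in the RNA clusters. The gates and the clusters share many of the same cells, so this is not a separate check. In the Mll4-labelled library the erythroid share was 95.9% in the CD150+ gate and 48.3% in the CD150- gate. In the Mll3-labelled library Blvrb was at 514 and 827 CPM and Rhd at 21.5 and 106 CPM in the CD150+ and CD150- gates.

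**Figure D4:**
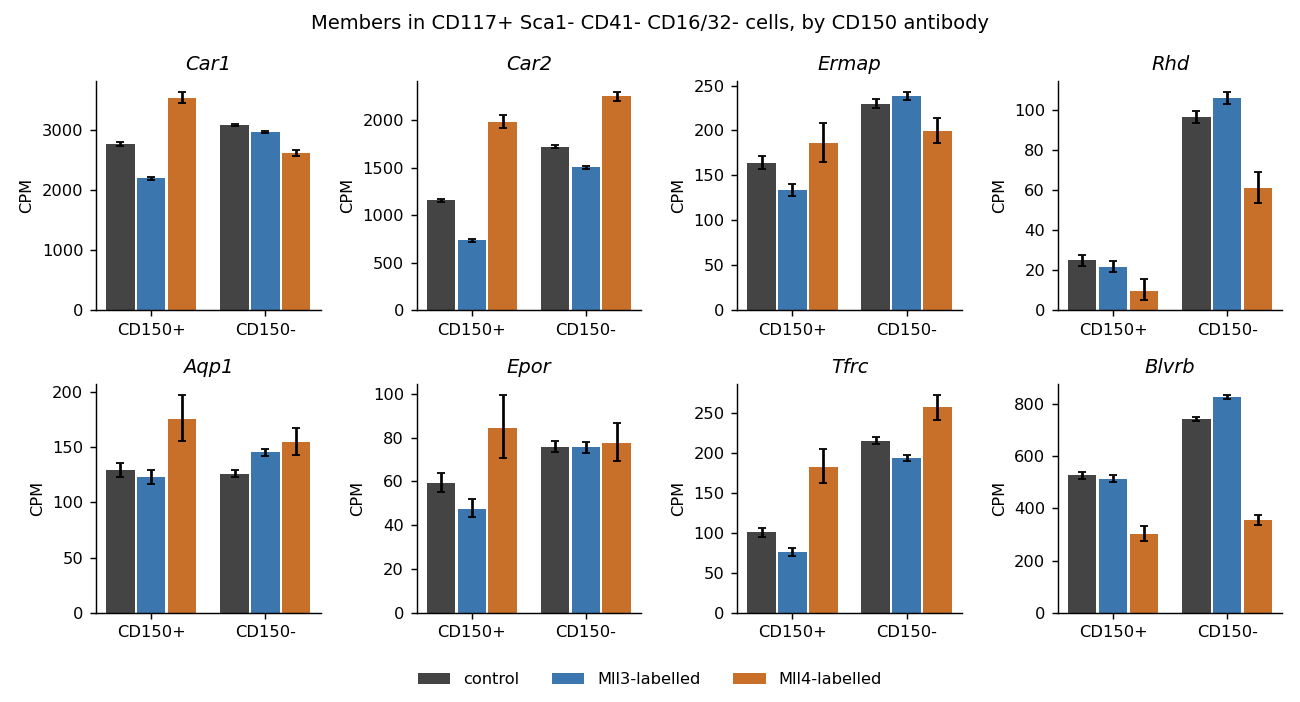
Bars give the level of each member in CPM, on linear axes that start at 0, in CD117+ Sca1- CD41- CD16/32- cells with and without CD150, for 3 libraries, with 95% Poisson intervals. Rhd and Tfrc are higher without CD150 in each library, and the Mll4-labelled bars of Blvrb and Rhd are the lowest of each gate.

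In the Mll3-labelled library the member ratios to control within erythroid progenitor-like cells were small, from -0.17 for Car2 to 0.21 for Aqp1, and 0 of 8 were called where 0.712% of 12221 genes were. For all members but Tfrc the hashtags of this library differed from each other by more than the library differed from control. In erythroid progenitor-like cells Ermap was at 208 and 292 CPM for the first and second hashtag. Aqp1 was at 135 and 189 CPM, Car1 at 2834 and 3255 CPM and Epor at 74.7 and 82.4 CPM. Rhd, Car2 and Blvrb follow by cluster. Rhd was at 5.09 CPM (21 counts) and 28.6 CPM (98 counts) in the early cluster, 16.4 and 46.4 CPM in the middle cluster, and 106 and 215 CPM in the late cluster for the first and second hashtag. In control the same pairs were 10.4 and 10.8 CPM, 27.7 and 21.6 CPM, and 142 and 148 CPM. The Mll3-labelled values thus lay on both sides of control in each cluster. Car2 in that library was at 493 and 897 CPM in the early, 609.6 and 1032 CPM in the middle and 1567 and 2408 CPM in the late cluster. Blvrb was at 373 and 498 CPM, 515 and 649.6 CPM, and 937 and 1144 CPM. With the first hashtag alone the Rhd ratio to control was -0.35 and with the second 0.69, so no direction for Rhd can be given for this library.

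In the Mll3/4-labelled library the 2 erythroid progenitor-like cells, 1 early and 1 late, held 543 of the 548 Car1 counts, 24 of the 25 Ermap counts and 15 of the 17 Aqp1 counts. Nearly all of these came from the late cell, which had 97400 UMIs and 542 Car1, 24 Ermap and 15 Aqp1 counts. The early cell held 1 count each of Car1 and Car2 and 0 counts of every other member. All other cells held 5 Car1 counts in 77545533 UMIs, or 0.0645 CPM (0.0209 to 0.150). Car1 in those cells was far below the 16.7 to 74.5 CPM of the control classes outside the lineage. Nearly all of those cells were B-cell progenitor-like, and the part of free red cell RNA in this difference was not tested. Rhd had 4 of 12 counts and Epor 10 of 25 in the 2 cells. The members' counts in the rest of this library were 8 for Rhd, 15 for Epor, 2 for Aqp1 and 1 for Ermap. In the gate of CD117+ Sca1- CD41- CD16/32- CD150+ cells, 128 cells of this library held 2 Car1 counts and 0 counts of Ermap, Rhd and Aqp1. The 2753 CD150- cells of the same gate held 0 counts of Car1, Ermap and Aqp1 and 5 of Rhd. An alternative added after the data were seen left the 2 erythroid cells out of this library alone. All 8 members were then at least 2-fold lower than over all control cells. Control kept its own erythroid cells, where the members are highest, so this could not have come out otherwise and checks nothing.

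The B-cell progenitor-like class held 6830 cells (98.7%) of the Mll3/4-labelled library and 469 cells (6.56%) of control. They supplied 95.2% of the Car2 counts, 96.9% of the Tfrc counts and 95.1% of the Blvrb counts of the Mll3/4-labelled library. Different clusters hold most of this class in the libraries: 2 clusters in control and 5 others in the Mll3/4-labelled library. Car2 in these cells was at 143, 113, 216 and 116 CPM, the last pair from 77 and 8829 counts. Its ratio in the Mll3/4-labelled library was -0.30 (-0.44 to -0.16), so the Car2 transcript in these cells stayed within 2-fold of control. Tfrc was at 50.4, 35.8, 58.95 and 31.1 CPM, with a ratio of -0.68 in the Mll3/4-labelled library. Blvrb was at 70.9, 79.6, 22.5 and 30.7 CPM, and Car1 at 35.3, 41.02, 11.2 and 0.0659 CPM. Of the 4 members with enough counts, 2 were called lower in the Mll3/4-labelled library, Car1 (-5.09) and Blvrb (-1.18), where 7.38% of 13455 genes were. The same 2 were called lower in the Mll4-labelled library, on 4 and 8 counts, where 8.69% of 8726 genes were, and 0 of 4 in the Mll3-labelled library, where 2.3% of 8866 genes were called in either direction. The libraries differ in how much erythroid RNA they hold, from 0.144% to 52.2% of UMIs, and its part in the Car1 and Blvrb counts of B-cell progenitor-like cells was not tested.

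Other genes of the same pathways were taken from lists chosen with earlier results of these data known. Over all cells of the Mll3/4-labelled library, 10 of 19 measured genes of the red cell membrane and skeleton were called lower and none higher, where 11.7% of all genes were called lower, with a median ratio of -1.05 against -0.01 for all genes. The counts of genes called lower in the lists that follow stand against the same share. This library held 2 erythroid progenitor-like cells against 1699 in control, and 6830 B-cell progenitor-like cells. For every list, cell composition and RNA per cell therefore cannot be told apart. The membrane and skeleton genes called lower included Ank1, Sptb, Epb42, Add2, Rhag, Kel, Icam4 and Xk. The 3 of this list most abundant in control erythroid cells did not move alike. Cd47, an inhibitor of uptake by macrophages, was at 536 and 647 CPM over all cells of control and the Mll3/4-labelled library. Bsg was at 317 and 166 CPM, and Icam4, an adhesion protein of red cells, at 45.9 and 2.33 CPM. Of the genes for transferrin uptake and iron handling, 7 of 14 were called lower (median -0.95), among them Tfr2 and Steap3, and the ferritin heavy chain gene Fth1 was at 2362 and 609 CPM. Of the genes of erythropoietin receptor signalling, 4 of 14 were called higher (Cish, Socs2, Bcl2l1 and Sh2b3), where 12% of all genes were. Another 3 were called lower (Stat5a, Ptpn6 and Podxl), and the list median was -0.08. Epor itself had 15 counts in the cells of this library outside the erythroid class, and signalling through the receptor was not tested. Stat5a, the transcription factor that the receptor activates, was at 37.7 and 9.77 CPM, and the phosphatase gene Ptpn6 at 82.7 and 9.36 CPM. Of the other carbonic anhydrases, 8 of 14 had enough counts, and 1 was called, Car5b, which was higher. All 4 globin genes were called lower.

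Within erythroid progenitor-like cells few genes of these lists were called. Over all genes, 4.45% of 12061 were called in either direction in the Mll4-labelled library and 0.712% of 12221 in the Mll3-labelled library. Counts of 0 in lists this short lie near those shares. In the Mll4-labelled library 0 of 19 membrane genes, 0 of 13 iron genes, 0 of 14 receptor signalling genes, 0 of 8 other carbonic anhydrases, 0 of 5 heme breakdown genes and 0 of 2 other aquaporins were called, with list medians of 0.12, 0.34, 0.30, -0.02, -0.09 and -0.09 against 0.17 for all genes. The globin genes Hba-a1 and Hba-a2 were called lower there, and Hba-a1 was at 14.8 CPM against 32.8 CPM in control. The beta-globin genes were not called and went both ways. Hbb-bs was at 35.7 against 26.9 CPM in control (log2 ratio 0.40) and Hbb-bt at 52.0 against 62.5 CPM (-0.26). Blvra, which encodes the other biliverdin reductase, was at 38.4 CPM against 55.8 CPM in control, a log2 ratio of -0.53. Of the receptor signalling genes 1 of 14 was called lower in Mll3-labelled cells, Socs1, as was 1 of 4 globin genes, Hbb-bt, and no gene of the other 5 lists.

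The genes whose levels were most like those of each member were found over 28 profiles, each a cell class in a library with at least 50 cells. The profiles of a library share its depth and its free RNA, so the Pearson correlations of log2(CPM + 1) are a description. Rhd was most like Sphk1 (r = 0.98), Add2 (0.97) and Asb17os (0.95), and Ermap most like Tmem56 (0.95), Pklr (0.94) and Ank1 (0.94). The genes like Car1 included Tspo2 (0.92) and Sphk1 (0.90). Blvrb was most like Tspo2 (0.89), and Rfesd (0.88) was also among its nearest genes. Epor and Aqp1 shared their first neighbours, Gm15915 (0.95 and 0.91) and Ces2g (0.94 and 0.88), followed by the erythroid factor gene Klf1 (0.91) for Epor and Podxl (0.88) for Aqp1. Car2 stood apart, with Tgfbr3 (0.91), Ahctf1 (0.90) and Sept8 (0.88), and Tfrc had the weakest first neighbour, Psmc2 (0.86), followed by Pklr (0.84) and C2cd4a (0.83). Among the members, Aqp1 and Epor were the most alike pair (0.94) and Car2 and Tfrc the least alike (0.38).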

How the data were processed

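The deposited matrices hold raw UMI counts per gene and antibody, made with Cell Ranger 6.1.2 on mm10 per the submitters' processing notes; cell calling settings are not given in the sources used here. Such 3' UMI counts see the end of a transcript only. Barcodes with at least 500 genes, at least 1000 UMIs and at most 10% mitochondrial UMIs were kept, and the top Scrublet scores (scanpy 1.11.5) were removed at 0.8% per 1000 barcodes. Cells of the 4 libraries were clustered together (2000 variable genes, 30 components, 15 neighbours, Leiden resolution 1), without the 8 members. Clusters were named from 123 marker genes of 15 classes. The members, markers and lists were chosen with earlier results of these data known.

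Counts were summed per library and class and scaled to CPM, with exact Poisson intervals. Log2 ratios carry 1 CPM on both values; their intervals are exact binomial ones without it. A class needed 50 cells in a library for a ratio. With 1 library a group, no test was run. The computation of ratios and intervals was checked on simulated Poisson counts. These hold no variation between cells, hashtags or libraries, so the check covers the arithmetic alone. TMM factors came from edgeR 4.0.16. Antibody thresholds are the crossing of a 2-component mixture in control. Named genes were the 8 members, the 3 most abundant of each list, the 3 most alike of each member, and Kmt2c, Kmt2d and Xist; other list genes are named where called. Some of these genes are not reported here.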

Additional observations from a re-analysis of the deposited data

Results flagged for a closer look

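For a pair of members, a library was at least 2-fold from control in one cell class and moved the other way in another class, with both intervals on their own side of 0. The difference between the classes was not tested. Car2 in the Mll4-labelled library had a log2 ratio to control of 0.59 (0.22 to 0.94) in B-cell progenitor-like cells, on 77 counts, and of -1.55 (-2.03 to -1.13) in basophil/mast-like cells, where 53 counts in 250 cells stood against 241 counts in 119 control cells. Tfrc in the Mll3-labelled library had a log2 ratio of 1.06 (0.22 to 1.998) in basophil/mast-like cells, on 25 counts against 22 in control, and of -0.48 in B-cell progenitor-like cells. The globin genes summed to 802 CPM in the 66 Mll3-labelled basophil/mast-like cells, against 4.86 CPM in those of control. The part of red cell RNA in this Tfrc ratio was not tested. Of all genes, 3.99% were called lower in basophil/mast-like cells of the Mll4-labelled library and 0.588% higher in those of the Mll3-labelled library.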

How the results depend on the processing

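No member ratio past 2-fold changed sign under any alternative run. The counts of members at least 2-fold from control that moved by over 1.5 times were these. Over all cells of the Mll4-labelled library, 4 members became 2 with the first hashtag alone and 7 with the second. Within its erythroid progenitor-like cells, 0 became 1 under trimmed mean of M values scaling and 1 with cells thinned to 2000 UMIs, Blvrb in both. In B-cell progenitor-like cells, the Mll3-labelled count of 0 became 1 with no minimum count, the Mll4-labelled count of 2 became 0 with the second hashtag alone and 1 at Leiden resolution 0.5, and the Mll3/4-labelled count of 2 became 1 with a pseudocount of 10 CPM and 4 with no minimum count. The cause was not tested. Of 760 single ratios recomputed, 477 stayed within the counting interval of the reported value and 283 left it. In erythroid cells of the Mll4-labelled library, Blvrb ranged from -1.21 to -0.93, Rhd from -0.96 to -0.61 and Car2 from 0.23 to 0.53 over 17 alternatives. Scaling by trimmed mean of M values moved the median gene in B-cell progenitor-like cells from 0.10 to -0.14 in the Mll4-labelled library and from 0.02 to 0.12 in the Mll3/4-labelled library. Depth limits Rhd most, with 4 and 3 counts in the early and middle erythroid clusters of the Mll4-labelled library. No paired analysis was possible because each group has 1 library.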

Other observations

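Blvrb had a further high value outside the red cell lineage, in mature B-like cells, which carry immunoglobulin light chain genes. In the Mll3-labelled library 146 such cells held 160 Blvrb counts, or 357 CPM (304 to 417), and 21 control cells held 15 counts, or 216 CPM (121 to 357). Car1 in the same Mll3-labelled cells was at 71.5 CPM (32 counts). In erythroid progenitor-like cells of that library Blvrb was at 864 CPM and Car1 at 3003 CPM.

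A cluster that the markers left unnamed held 91 Mll3-labelled, 17 control and 5 Mll4-labelled cells, with a median of 1295 UMIs. Ank1 and Kel of the red cell membrane were among its 10 leading genes, behind Gm26917 and Gm42418. Ermap was at 434 CPM (57 counts) there in the Mll3-labelled library and at 802 CPM (18 counts) in control, above the 242 and 228 CPM of the erythroid progenitor-like cells. Car1 was at 343 CPM in the 91 cells.

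Among the 5 B-cell progenitor-like clusters of the Mll3/4-labelled library, the proliferation gene Mki67 ran from 57.8 to 1668 CPM. Car2 was lowest, at 67.5 CPM, in the cluster with the lowest Mki67, and at 161 and 157 CPM in the pair with the highest. Tfrc was at 24.0 CPM in the cluster with the highest Mki67 and at 30.1 to 39.8 CPM in the other 4.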
